A study of Oryctolagus cuniculus with 16 samples.

Results

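CSF1, CSF1R, IL34 and TNFSF11 are 4 of the 29587 genes in a deposited gene table of rabbit tibia RNA, and their rows were taken by gene symbol. CSF1 encodes macrophage colony-stimulating factor, CSF1R its receptor tyrosine kinase, IL34 the other ligand of that receptor, and TNFSF11 the cytokine RANKL. Most of what follows as background was worked out in mice and humans. CSF1 or IL34 binds CSF1R on monocytes, macrophages and osteoclast precursors and keeps these cells alive and dividing. RANKL, made by osteocytes, osteoblast-lineage cells and activated lymphocytes, binds its receptor RANK on CSF1-primed precursors and drives their fusion into bone-resorbing osteoclasts, while the decoy receptor osteoprotegerin (TNFRSF11B) captures RANKL first. In healing bone beside an implant, macrophages clear debris and osteoclasts resorb damaged bone.

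Each of 4 rabbits gave 1 library from each of 4 drilled tibial sites, right and left, proximal and distal, 10 days after surgery. One site is labelled Sham. Of the others, Turned Ti and Turned Cu were machined implants of titanium and of copper, and SLA Ti was a titanium implant sandblasted with large grit and then etched with acid. The 4 libraries of a group, numbered by rabbit, came from 4 animals, and every Sham site lay in an animal that also carried copper and both titanium implants. Strain, age and sex are not stated in the labels.

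The tissue, taken with a curette from inside the hole, is a mixture of cells, in which fewer cells of a type and less RNA per cell cannot be told apart. Library totals ran from 8539984 to 20406474 counts, of which 965804 to 3960681 fell on protein-coding nuclear genes. Nuclear ribosomal RNA took 0.349% to 65.3% of the counts, most in the Sham library of rabbit 2, the Turned Ti library of rabbit 4 and the SLA Ti library of rabbit 4. Mitochondrial transcripts took 12.1% to 74.1% of the counts outside ribosomal RNA, most in the Turned Cu libraries of rabbits 2 and 4. Osteoblast and osteocyte markers, which the labelled tissue should hold, summed to 1710 to 21700 CPM in the Sham and titanium libraries and to 357 to 2680 CPM with copper. CPM here are counts relative to a library size scaled by the TMM method.

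All 4 genes had enough counts to be tested. CSF1 (ENSOCUG00000025029) lies on chromosome 13 from 54251256 to 54261114, CSF1R (ENSOCUG00000021056) on chromosome 3 from 31834346 to 31860154, IL34 (ENSOCUG00000022125) on chromosome 5 from 28856488 to 28868251, and TNFSF11 (ENSOCUG00000011051) on chromosome 8 from 52472923 to 52505065, all on the minus strand. The coordinates are those of the gene table, and each value covers the whole gene model. Their build is not stated in any source at hand. By mean level CSF1R stood at the 96.2 percentile of the 11617 genes kept and CSF1 at the 94.4 percentile, whereas IL34 stood at the 26.2 and TNFSF11 at the 12.8 percentile.

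CSF1 rose beside copper and the other 3 genes did not pass the test in any of the 6 comparisons. Of the 4 genes, 1 rose in Turned Cu against Sham, 1 against Turned Ti and 1 against SLA Ti, and 0 fell. Tests were by quasi-likelihood in edgeR, with p-values adjusted after Benjamini and Hochberg over all genes and a threshold of 0.05. It called 23.2% of all genes higher and 19.6% lower in Turned Cu against Sham, 21.1% higher and 19.6% lower against Turned Ti, and 15.3% higher and 15.7% lower against SLA Ti, so a call for 1 gene of 4 is close to the background share. The median log2 fold change of the 4 genes against Sham was -0.50, beside -0.06 over all genes.

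The share of calls that were higher in Turned Cu depended on how libraries were scaled. It was 54.2% against Sham, 51.8% against Turned Ti and 49.4% against SLA Ti. Without ribosomal RNA and mitochondrial genes it was 38.5% against SLA Ti. In a limma fit to the deposited RPKM values it was 19.1%, 7.95% and 2.00%, and the median log2 difference of all genes was then -1.0, -1.51 and -1.73.

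**Figure D1:**
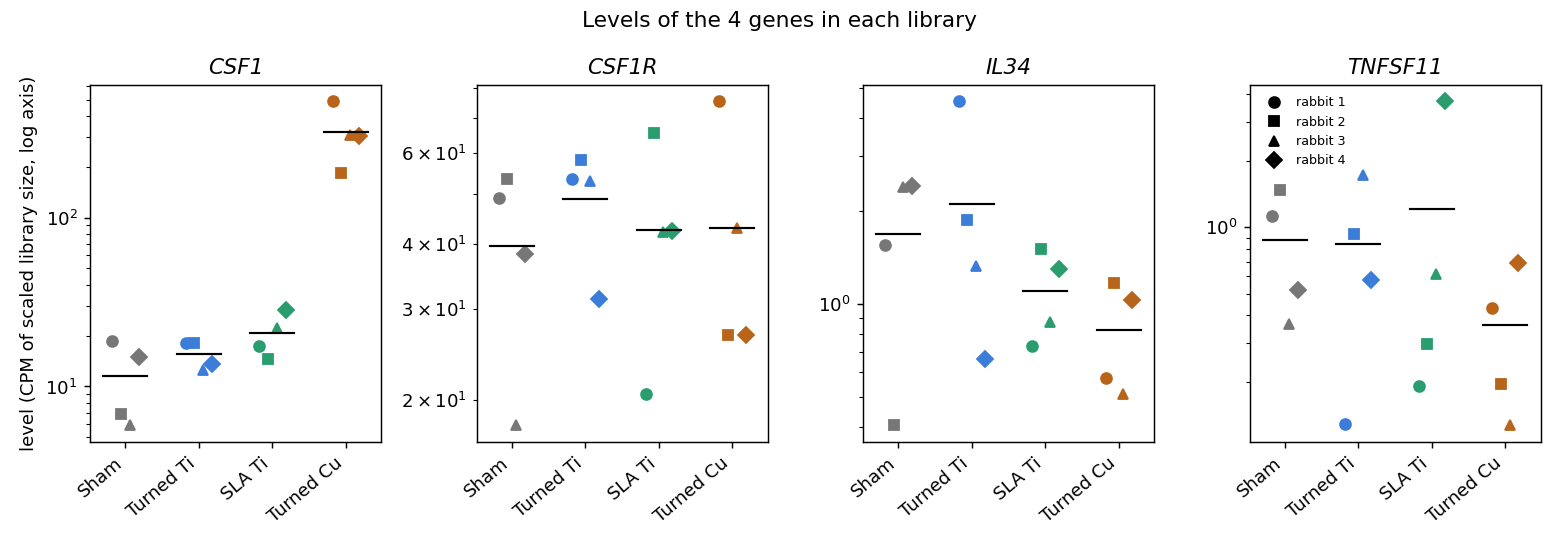
Level of each gene in every library, in CPM on a log axis that differs between panels, by implant type, with 1 marker shape per rabbit and a bar at the mean of 4 libraries. CSF1 lies between 184 and 489 CPM in the 4 Turned Cu libraries and at or below 28.4 CPM in the 12 others, while the groups overlap for CSF1R, IL34 and TNFSF11.

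The growth factor CSF1 was measured at 489, 184, 308 and 306 CPM in the Turned Cu libraries of rabbits 1 to 4. The Sham libraries of the same rabbits had 18.7, 6.86, 5.88 and 14.9 CPM. Turned Ti had 18.2, 18.2, 12.6 and 13.5 CPM, and SLA Ti had 17.3, 14.5, 22.2 and 28.4 CPM. The lowest Turned Cu library thus lay above the highest of the 12 other libraries, and the Turned Cu values of the 4 rabbits differed among themselves by 2.66-fold.

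Group means of CSF1 were 322 ± 126 CPM in Turned Cu, 20.6 ± 6.11 in SLA Ti, 15.6 ± 2.99 in Turned Ti and 11.6 ± 6.24 in Sham (SD, n = 4). The log2 fold change of Turned Cu was 4.79 ± 0.46 (SE) against Sham, or 27.6-fold, with an adjusted p of 6.76e-06 by edgeR. It was 4.36 ± 0.45 against Turned Ti, or 20.6-fold, with an adjusted p of 1.35e-05. It was 3.97 ± 0.44 against SLA Ti, or 15.6-fold, with an adjusted p of 3.76e-05. CSF1 was higher with copper in 4 of 4 rabbits in each of these comparisons.

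By p-value CSF1 ranked 11 among the 11617 genes tested in Turned Cu against Sham, 16 against Turned Ti and 15 against SLA Ti. By size of the rise it ranked 197, 233 and 65. The Turned Cu and other values of CSF1 did not overlap, which held for 21.8% of all genes as a rise against Sham, 19.0% against Turned Ti and 13.4% against SLA Ti. Within rabbits, the log2 difference of Turned Cu from Sham ran from 4.35 to 5.68.

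The deposited RPKM values, which are not corrected for the ribosomal and mitochondrial share, gave a narrower gap for CSF1. They ran from 32.73 to 241.73 in Turned Cu and from 2.75 to 37.21 in the 12 other libraries. The Turned Cu library of rabbit 2, where mitochondrial transcripts were most abundant, lay below the Turned Ti library of rabbit 1. The limma fit on log2(RPKM + 0.1) still called CSF1 higher in Turned Cu, by 3.83 against Sham (adjusted p = 7.82e-05), by 2.75 against Turned Ti (adjusted p = 0.00251) and by 2.09 against SLA Ti (adjusted p = 0.0153).

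Among the titanium and Sham sites, CSF1 had its highest mean in SLA Ti and its lowest in Sham, but neighbours in that order did not differ beyond their spread. SLA Ti exceeded Sham by 0.82 ± 0.39 on the log2 scale, in 3 of 4 rabbits (unadjusted p = 0.0517, adjusted p = 0.356, edgeR). Turned Ti differed from Sham by 0.43 ± 0.39 and SLA Ti from Turned Ti by 0.40 ± 0.39, with adjusted p-values of 1 and 0.77 from edgeR. None of the 4 genes passed in Turned Ti against Sham, SLA Ti against Sham or SLA Ti against Turned Ti, where edgeR called 0% of all genes in each. At an unadjusted p below 0.05 these 3 comparisons gave 290, 1660 and 1048 genes, none of the 4 among them. DESeq2 called 0, 337 and 101 genes there. It gave no adjusted p for IL34 and TNFSF11 in the 2 comparisons with SLA Ti, and none of the values it did give for the 4 genes passed.

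**Figure D2:**
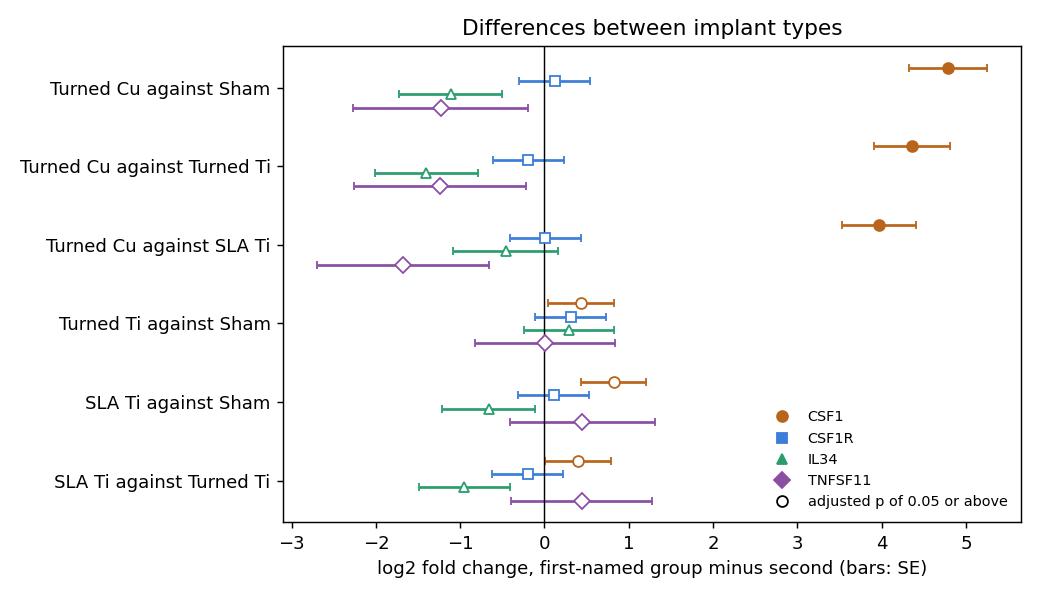
Log2 fold change of each gene in the 6 comparisons, first-named group minus second, with its SE as a bar and an open symbol where the adjusted p was 0.05 or above. CSF1 lies between 3.97 and 4.79 in the 3 comparisons with copper, and all other symbols are open.

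The receptor CSF1R showed no such separation. CSF1R was measured at 75.4, 26.7, 43.0 and 26.7 CPM in the Turned Cu libraries of rabbits 1 to 4 and at 49.1, 53.4, 17.9 and 38.2 CPM in Sham. Turned Ti had 53.3, 58.2, 53.0 and 31.3 CPM, and SLA Ti had 20.6, 65.5, 42.2 and 42.3 CPM. The Turned Cu library of rabbit 1 was the highest of all 16, while those of rabbits 2 and 4 lay below 3 of the 4 Sham libraries.

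Group means of CSF1R ran from 39.6 ± 15.9 CPM in Sham over 42.6 ± 18.3 in SLA Ti and 43.0 ± 22.9 in Turned Cu to 48.9 ± 12.0 in Turned Ti (SD, n = 4), and no neighbours in that order differed beyond their spread. The difference of Turned Cu from Sham was 0.12 ± 0.42 on the log2 scale with a 95% interval from -0.76 to 1.00 and an adjusted p of 0.845 by edgeR. This interval leaves room for a change of about 2-fold either way. Against Turned Ti the interval ran from -1.07 to 0.69, and against SLA Ti from -0.87 to 0.89.

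The size of the CSF1R difference rested on which Turned Cu libraries were used. Without those of rabbits 1 and 3 it was -0.88 against Sham (adjusted p = 0.191), -1.14 against Turned Ti (adjusted p = 0.0994) and -0.97 against SLA Ti (adjusted p = 0.179) by edgeR. The Turned Cu sites of rabbits 2 and 4 were proximal and those of rabbits 1 and 3 distal. Mitochondrial shares outside ribosomal RNA were 74.1% and 65.5% in the former, 33.8% and 19.7% in the latter. Rabbit, site end and RNA composition thus cannot be told apart in such subsets. The authors' deposited table also compares only the Turned Cu libraries of rabbits 2 and 4, and in it the log2 fold change of CSF1R was -1.07 from Turned Ti with a q of 0.0325 and -0.74 from Sham with a q of 0.284. With all 4 Turned Cu libraries the same authors' deposited table gives -0.06 from Turned Ti (q = 0.953) and 0.27 from Sham (q = 0.749). In the limma fit on RPKM, CSF1R was called lower in Turned Cu, with -1.81 against Turned Ti (adjusted p = 0.0383) and -1.81 against SLA Ti (adjusted p = 0.0344), beside medians of -1.51 and -1.73 over all genes.

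The gene model of CSF1R overlaps that of HMGXB3 on the plus strand. The library kit keeps strand, but the sources used here do not say whether counting used it, so the CSF1R counts may hold reads of HMGXB3. HMGXB3 itself lay between 16.9 and 40.4 CPM in Turned Cu and between 7.74 and 14.0 CPM in the other 12 libraries.

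IL34, the second ligand of the receptor, was a low transcript. It was counted 26, 3, 39 and 60 times in Sham, 140, 38, 37 and 8 times in Turned Ti, 19, 46, 17 and 17 times in SLA Ti, and 4, 6, 4 and 6 times in Turned Cu. In CPM the means were 2.10 ± 1.69 in Turned Ti, 1.69 ± 0.946 in Sham, 1.10 ± 0.364 in SLA Ti and 0.822 ± 0.329 in Turned Cu (SD, n = 4). The Turned Cu range of 0.509 to 1.17 CPM lay within the range of 0.404 to 4.53 CPM of the other libraries.

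The IL34 difference of Turned Cu was -1.11 ± 0.61 on the log2 scale against Sham (adjusted p = 0.157, edgeR), lower in 3 of 4 rabbits, and -1.40 ± 0.61 against Turned Ti (adjusted p = 0.0744, edgeR), also lower in 3 of 4 rabbits. The second value lay close to the threshold: the adjusted p was 0.0471 with RLE scaling, 0.0344 with DESeq2 and 0.0299 without Turned Ti replicate 4. Without the 3 libraries of highest ribosomal RNA share, edgeR called IL34 lower, with -1.55 against Sham (adjusted p = 0.026) and -1.81 against Turned Ti (adjusted p = 0.0112). Against SLA Ti the difference was -0.46 ± 0.62 (adjusted p = 0.617, edgeR), lower in 4 of 4 rabbits, by -0.66 to -0.29.

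TNFSF11, the RANKL gene, was lower still in level. Its counts were 19, 11, 6 and 13 in Sham, 4, 19, 48 and 7 in Turned Ti, 5, 9, 12 and 49 in SLA Ti, and 3, 1, 1 and 4 in Turned Cu. In CPM the means were 1.21 ± 1.69 in SLA Ti, 0.876 ± 0.521 in Sham, 0.841 ± 0.673 in Turned Ti and 0.360 ± 0.254 in Turned Cu (SD, n = 4). Single libraries of rabbits 3 and 4 set the higher values, 1.72 CPM in Turned Ti and 3.73 CPM in SLA Ti.

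The TNFSF11 difference of Turned Cu was -1.23 ± 1.04 against Sham, with a 95% interval from -3.41 to 0.96 and an adjusted p of 0.363 by edgeR. It was -1.24 ± 1.02 against Turned Ti and -1.68 ± 1.02 against SLA Ti, with adjusted p-values of 0.355 and 0.222 from edgeR. These values rest on 1 to 4 TNFSF11 counts per copper library. On the RPKM scale the groups did not overlap, with 0.06 to 0.39 in Turned Cu and 0.40 to 3.67 in the other 12 libraries, which held for 19.7% of all genes in that direction. There limma called TNFSF11 lower, with -1.86 against Sham (adjusted p = 0.0391), where the median of all genes was -1.0 and 25.1% of all genes were called lower. It was also called lower against Turned Ti and SLA Ti, along with 46.9% and 56.5% of all genes.

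Ratios of counts within a library do not depend on how libraries are scaled. Corrected for length through the RPKM values, there was 0.258 to 0.812 CSF1 transcript per CSF1R transcript in Sham, 0.495 to 0.87 in Turned Ti, 0.457 to 1.75 in SLA Ti and 13.4 to 23.7 in Turned Cu. The ligand was thus below its receptor in every Sham and Turned Ti library and above it in every copper library.

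On the log2 scale of counts (0.5 added), CSF1 over CSF1R was 2.96 ± 0.38 in Turned Cu and -1.82 ± 0.76 in Sham (SD, n = 4), a difference of 4.78. It exceeded Turned Ti by 4.58 and SLA Ti by 3.94, in 4 of 4 rabbits each time. The two-sided exact permutation p was 0.0286 in each of these 3 comparisons, the smallest that 4 against 4 allows. Adjusted over the 18 ratio tests it was 0.0858 and did not pass, and with sign flips over the 4 rabbits it was 0.125, the smallest that 4 pairs allow. With the floor of 0.0286, the adjusted p could pass only if more of the 18 tests had reached that floor.

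IL34 over CSF1, the balance of the ligands, was -8.48 ± 1.06 on the log2 scale in Turned Cu and -2.84 ± 1.16 in Sham (SD, n = 4). The difference of Turned Cu was -5.64 from Sham, -5.29 from Turned Ti and -4.27 from SLA Ti, negative in 4 of 4 rabbits each time (exact permutation p = 0.0286, adjusted 0.0858, sign flips 0.125). Per length, IL34 reached 0.0909 to 0.633 of the CSF1 level in Sham and 0.00182 to 0.00978 in Turned Cu. Both ratios contain CSF1, so they are not separate evidence.

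**Figure D3:**
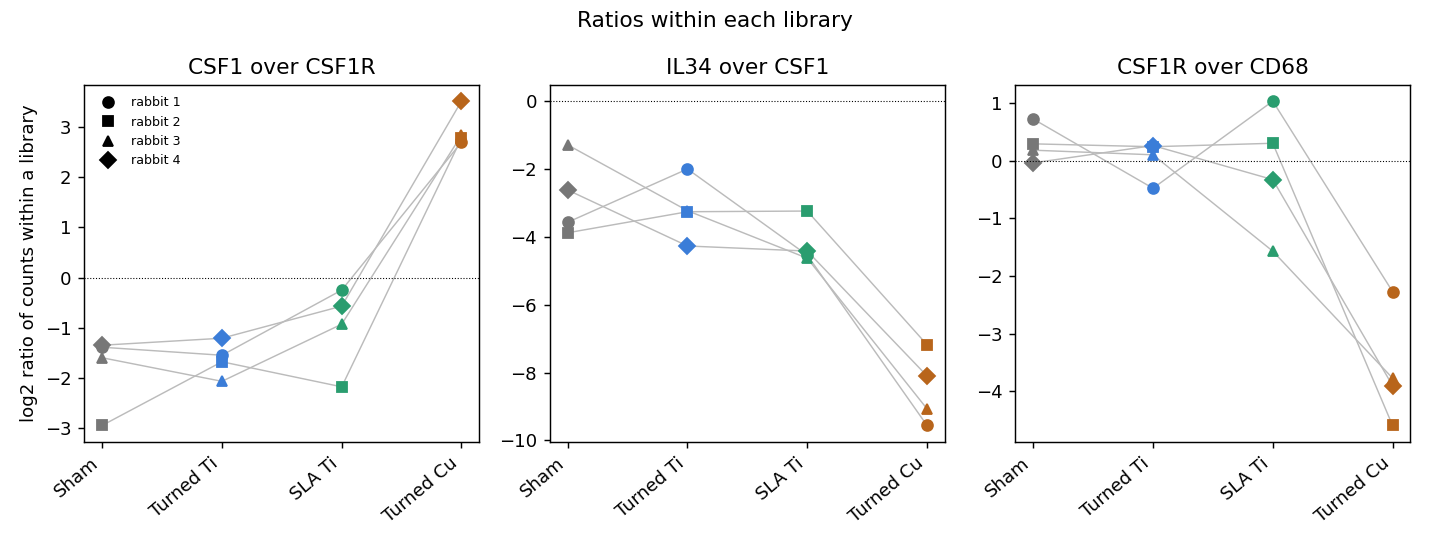
Log2 ratio of counts within each library for CSF1 over CSF1R, IL34 over CSF1 and CSF1R over CD68, by implant type, with a grey line joining the sites of 1 rabbit. In Turned Cu the first lies between 2.7 and 3.52, the second between -9.56 and -7.18 and the third between -4.59 and -2.27, outside the values of all other libraries.

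Osteoprotegerin, the decoy receptor of RANKL, was counted rarely. TNFRSF11B had 3, 3, 5 and 5 counts in Sham, 15, 3, 28 and 0 in Turned Ti, 1, 2, 4 and 2 in SLA Ti and 0 in all 4 Turned Cu libraries, and the filter on low counts removed it. A count of 0 over the 4 copper libraries together allows up to 3 counts, or 0.116 CPM, beside a Sham mean of 0.272 CPM. In a single copper library 3 counts make 0.382 to 0.585 CPM, while single Sham libraries had 0.179 to 0.404 CPM. In the edgeR fit with no low-count filter TNFRSF11B was lower in Turned Cu than in Sham (adjusted p = 0.037) and Turned Ti (adjusted p = 0.0139), and did not pass against SLA Ti (adjusted p = 0.147). The authors' deposited q-values for TNFRSF11B did not pass, with 0.205 from Sham, 0.169 from Turned Ti and 0.631 from SLA Ti. The log2 ratio of TNFSF11 over TNFRSF11B was 2.29 ± 0.82 in Turned Cu and 1.43 ± 0.93 in Sham (exact permutation p = 0.2, n = 4), and the sign of the difference turned to -0.17 when 2 counts were added in place of 0.5.

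The partners of the axis were taken from a list of 15 genes: further receptors and regulators of RANKL, adaptors and sister receptors of CSF1R, and proteases that shed these ligands or receptors from the cell surface. Of 8 members tested in Turned Cu against Sham, 4 rose, 1 fell and 3 did not pass, with a median log2 fold change of 1.53. The shares over all genes were 23.2% higher and 19.6% lower, with a median of -0.06. TNFRSF11A, the gene of RANK itself, and TREM2, CSF2RA and MMP14 are not analysed here. CSF2 and CSF3, the genes of the granulocyte-macrophage and granulocyte colony-stimulating factors, had at most 3 counts in any library.

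LGR4, a receptor that also binds RANKL and dampens RANK signalling in mice, fell. It had 0, 1, 5 and 3 counts in the Turned Cu libraries against 29 to 85 in Sham, and 0.337 ± 0.292 CPM against 3.71 ± 2.26 (SD, n = 4). The log2 fold change was -3.37 ± 0.78 with an adjusted p of 0.00219 by edgeR, and LGR4 was also lower than in Turned Ti (adjusted p = 0.000948) and SLA Ti (adjusted p = 0.0065). All 12 other libraries, at 1.30 to 11.0 CPM, lay above the 4 copper libraries. On the RPKM scale they did so too, which held for 19.7% of all genes. The test called 19.6% of all genes lower against Sham.

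TYROBP, the adaptor DAP12 that couples myeloid receptors to Syk and works with CSF1R and RANK in osteoclast precursors, rose by 3.20 ± 0.37 against Sham (adjusted p = 1.7e-05, edgeR), from 4.72 ± 2.09 to 43.7 ± 11.1 CPM (SD, n = 4). ADAM17, a protease that sheds cell-surface CSF1 and CSF1R, rose by 2.63 ± 0.40 (adjusted p = 7.82e-05, edgeR), but on the RPKM scale limma gave 1.49 with an adjusted p of 0.107. ADAM10, another such protease, differed by 0.43 ± 0.43, and by 1.09 without Sham replicate 2, where it passed (adjusted p = 0.0315, edgeR). SDC1, a heparan sulphate proteoglycan, differed by -0.05 ± 0.36. PTPRZ1, a receptor for IL34 on neural cells, differed by -3.57 ± 1.52 (adjusted p = 0.0677, edgeR; 0.0349, DESeq2) with single libraries at up to 5.79 CPM in Sham, and passed without Sham replicate 3 (adjusted p = 0.0467, edgeR).

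CSF2RB, the shared beta chain of the GM-CSF, IL-3 and IL-5 receptors, rose by 5.05 ± 0.83 against Sham (adjusted p = 0.000147, edgeR). CSF3R, the G-CSF receptor of neutrophils, rose by 5.72 ± 1.26 (adjusted p = 0.00153, edgeR). Unlike CSF1, both were also high in 1 titanium library. The SLA Ti library of rabbit 3 held 265 CPM of CSF2RB and 416 CPM of CSF3R, against 20.9 to 78.9 and 10.4 to 91 CPM in the other SLA Ti libraries.

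Genes of the CSF1R pathway inside the cell mostly rose with copper although the receptor did not pass. The list held transcription factors of the CSF1R promoter and kinases, phosphatases and adaptors downstream of the receptor. Of 21 members tested against Sham, 16 rose, 1 fell and 4 did not pass, with a median log2 fold change of 1.74. Of all genes, 23.2% rose and 19.6% fell, with a median of -0.06. PTPN6, the phosphatase SHP-1 that damps receptor signals, rose by 4.01 ± 0.50 (adjusted p = 2.4e-05, edgeR). LYN, a Src-family kinase, rose by 3.03 ± 0.41 (adjusted p = 4.03e-05), and CEBPB, a factor of myeloid differentiation, by 4.09 ± 0.58 (adjusted p = 4.98e-05, edgeR).

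Against Turned Ti 13 of these 21 rose and 1 fell, and against SLA Ti 11 rose and 1 fell. Over all genes 21.1% and 15.3% were called higher and 19.6% and 15.7% lower. Many genes of this list act behind other receptors too. On the RPKM scale 5 of the 21 rose against Sham, where limma called 5.93% of all genes higher, and their median was 0.68 beside -1.0 over all genes.

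Among the genes behind RANK more rose than fell, although TNFSF11 did not pass. Of 25 members tested against Sham, 14 rose, 1 fell and 10 did not pass, with a median of 1.31. Among all genes 23.2% rose and 19.6% fell in this comparison. BTK, a kinase that helps RANK raise calcium signals, rose by 3.17 ± 0.41 (adjusted p = 2.86e-05), NFKB2, a subunit of the alternative NF-kB pathway, by 2.82 ± 0.40 (adjusted p = 5e-05), TFE3, a partner of the osteoclast factor MITF, by 2.50 ± 0.37 (adjusted p = 7.24e-05) and BCL6, a repressor of osteoclast genes in mice, by 3.39 ± 0.51 (adjusted p = 7.47e-05, edgeR). On the RPKM scale 5 of the 25 rose, beside 5.93% of all genes, and NFKB2 and TFE3 did not pass (adjusted p = 0.0658 and 0.127, limma). NFATC1, the master factor of osteoclast formation, is not analysed here.

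**Figure D4:**
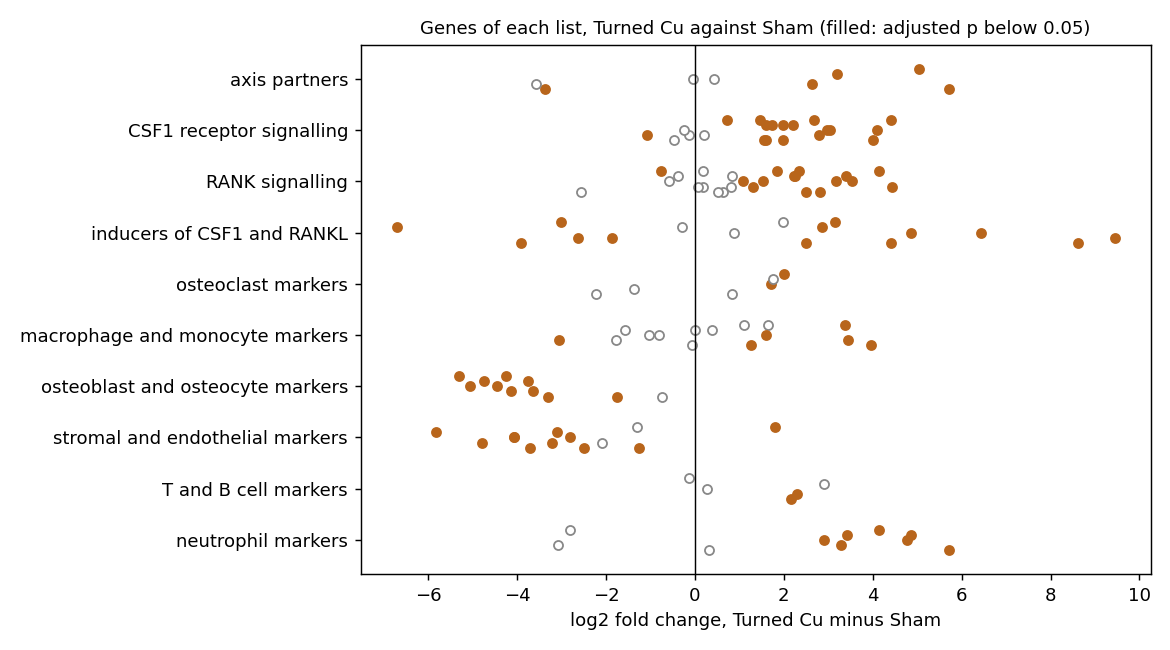
Log2 fold change in Turned Cu against Sham of each tested gene with a read in both groups, by list, filled where edgeR's adjusted p was below 0.05. The signalling lists have medians of 1.74 and 1.31, the osteoblast and osteocyte markers -4.13 and the stromal and endothelial markers -3.16.

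Cytokines, prostaglandin enzymes and receptors known to induce CSF1 or RANKL split in direction. Of 17 tested against Sham, 9 rose, 5 fell and 3 did not pass, beside 23.2% higher and 19.6% lower over all genes. Their median was 2.49, the same with IL1A, which had no read in Sham, set to a floor of 3 counts over the group. TNFRSF1A, the main receptor of TNF, rose by 2.86 ± 0.36 (adjusted p = 2.59e-05), IL6R, the interleukin 6 receptor, by 4.42 ± 0.64 (adjusted p = 5.81e-05) and PTGS2, the inducible cyclooxygenase, by 9.44 ± 1.42 (adjusted p = 7.6e-05, edgeR). On the RPKM scale TNFRSF1A did not pass (adjusted p = 0.0554, limma). LIFR, the receptor of leukaemia inhibitory factor on stromal and bone-forming cells, fell from 8.91 to 0.0677 CPM (adjusted p = 0.000111, edgeR).

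IL1B and TNF are cytokines that induce CSF1 in stromal and myeloid cells, and IL1B did not follow CSF1 in every library. IL1B was 534, 346, 580 and 678 CPM in Turned Cu and 936 CPM in the SLA Ti library of rabbit 3, the highest of all 16. That SLA Ti library had 22.2 CPM of CSF1, within the 14.5 to 28.4 CPM of its group. TNF was 7.40 to 20.5 CPM in Turned Cu, above all 12 other libraries, of which the same SLA Ti library was the highest at 6.01 CPM. This comparison of single libraries was chosen after the values were seen and was not tested.

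**Figure D5:**
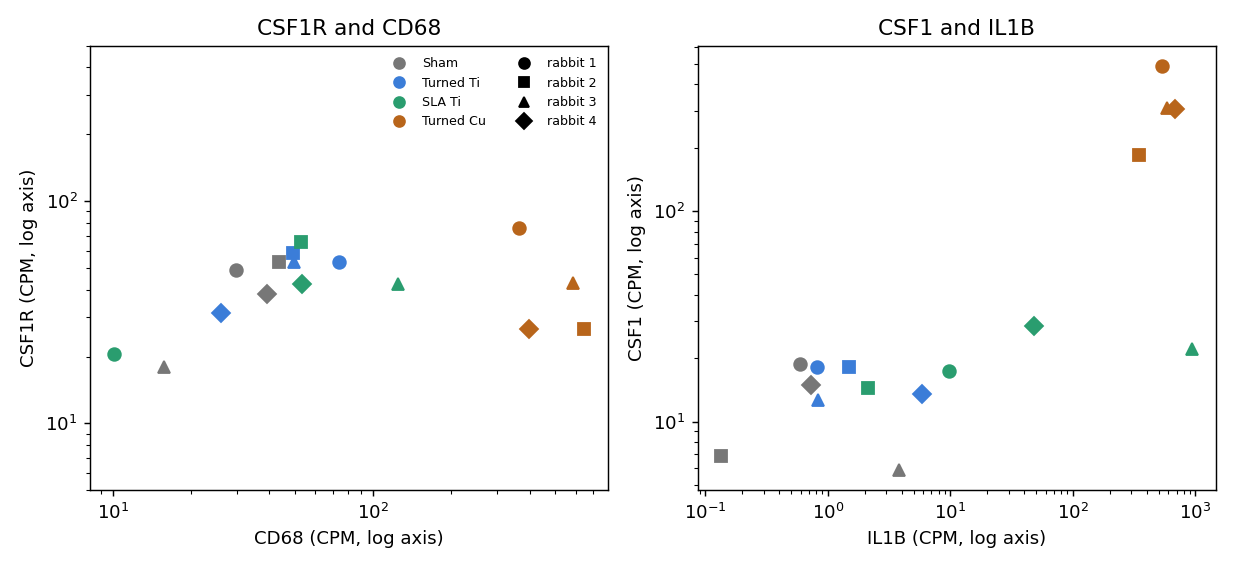
Left, CSF1R against CD68, and right, CSF1 against IL1B, each point 1 library in CPM on log axes, coloured by implant type with 1 shape per rabbit. Turned Cu has CD68 between 365 and 648 CPM with CSF1R between 26.7 and 75.4, and the SLA Ti library of rabbit 3 has the highest IL1B, 936 CPM, with 22.2 CPM of CSF1.

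CSF1R is itself used as a marker of monocytes and macrophages, and the other markers of these cells differed among themselves. Of 15 others tested against Sham, 5 rose, 1 fell and 9, like CSF1R, did not pass, with a median of 0.39. Over all genes the shares were 23.2% higher and 19.6% lower, with a median of -0.06. The marker that fell was CX3CR1, the fractalkine receptor (adjusted p = 0.0245, edgeR), which was named after its values were seen. CD68, a lysosomal protein of macrophages, rose by 3.96 ± 0.61 (adjusted p = 9.01e-05), CD14, a co-receptor for endotoxin, by 3.45 ± 0.54 (adjusted p = 0.000109), MSR1, a scavenger receptor, by 3.38 ± 0.56 (adjusted p = 0.000169) and LYZ, lysozyme, by 1.59 ± 0.46 (adjusted p = 0.00983, edgeR). Without the Turned Cu libraries of rabbits 2 and 4, 3 of the 15 rose, with a median of 0, and LYZ did not pass (adjusted p = 0.0848, edgeR). That fit called 2494 of all 11617 genes higher. Leaving out the Turned Cu library of rabbit 2 alone gave LYZ an adjusted p of 0.0667 by edgeR. On the RPKM scale LYZ differed from Sham by 0.44 and did not pass (adjusted p = 0.599, limma), beside a median of -1.0 over all genes. Against Turned Ti, 3 of the 15 rose and 1 fell, beside 21.1% and 19.6% of all genes. Against SLA Ti, 4 rose and 3 fell, beside 15.3% and 15.7%. The 16 markers in the table summed to 746 to 1250 CPM in Turned Cu and to 159 to 446 CPM in the other libraries. CD68 alone gave 365 to 648 CPM of this sum in Turned Cu and 10.1 to 125 CPM in the others.

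CD68 was 365, 648, 588 and 398 CPM in Turned Cu and at most 125 CPM elsewhere. The log2 ratio of CSF1R over CD68 was -3.63 ± 0.98 in Turned Cu, 0.29 ± 0.32 in Sham, 0.03 ± 0.35 in Turned Ti and -0.14 ± 1.10 in SLA Ti (SD, n = 4), and it was lower with copper in 4 of 4 rabbits. For CSF1R over TYROBP the difference of Turned Cu from Sham was -3.16. For CSF1R over CD14 it was -3.36 from Sham, -2.78 from Turned Ti and -1.88 from SLA Ti, and the Turned Cu values of -2.07 to -0.75 overlapped those of SLA Ti, at -1.02 to 1.21. These 3 ratios were chosen after the values were seen, each over a gene that rose, and carry no test.

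Markers of osteoclasts, the cells that CSF1 and RANKL together form, numbered 6 in the test. Against Sham 2 of the 6 rose, beside 23.2% of all genes, 0 fell and 4 did not pass, with a median of 1.27. OSTM1, a chloride-channel partner needed for bone resorption, rose by 2.01 ± 0.50 (adjusted p = 0.00377), and CA2, carbonic anhydrase of the acid-secreting cell, by 1.71 ± 0.53 (adjusted p = 0.0154, edgeR). Neither passed on the RPKM scale (adjusted p = 0.168 and 0.561, limma), and CA2 also did not pass without the Turned Cu libraries of rabbits 2 and 4 (adjusted p = 0.607, edgeR), where the median of the list was -0.26, nor without that of rabbit 2 alone (adjusted p = 0.135). The 7 markers in the table summed to 371 to 736 CPM in Turned Cu, within the 94.8 to 1030 CPM of the other libraries.

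CTSK, the collagen-degrading protease of osteoclasts, was 286, 465, 234 and 299 CPM in Turned Cu and 108, 380, 54.3 and 179 CPM in Sham, a difference of 0.83 ± 0.66 with an adjusted p of 0.333 by edgeR. Its highest value of 802 CPM was in the Turned Ti library of rabbit 1. MMP9, a gelatinase of osteoclasts and neutrophils, differed by -1.36 ± 0.62 (adjusted p = 0.0836) and OCSTAMP, a fusion factor, by -2.23 ± 1.25 (adjusted p = 0.163, edgeR). MMP9 passed without Sham replicate 3, at -1.73 (adjusted p = 0.0133, edgeR). It also passed by DESeq2, at -1.53 (adjusted p = 0.0278). With edgeR it passed at -1.64 with no filter (adjusted p = 0.0329) and -1.55 with only the compared groups (adjusted p = 0.0383). On the RPKM scale limma called MMP9 (-1.95, adjusted p = 0.0451) and OCSTAMP (-2.19, adjusted p = 0.0279) lower, along with 25.1% of all genes. Against Turned Ti 0 of the 6 passed by edgeR.

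Cell type markers moved with the copper sites, and their part in the levels of the 4 genes was not tested. Osteoblast and osteocyte markers, from cells that make CSF1, RANKL, osteoprotegerin and IL34, fell in 10 of 11 cases, beside 19.6% of all genes. Their median was -4.13. COL1A2, a chain of type I collagen, fell by 4.46 on the log2 scale (adjusted p = 0.000438), and ALPL, tissue-nonspecific alkaline phosphatase, by 5.07 (adjusted p = 0.000483). RUNX2 and SP7, the transcription factors of bone-forming cells, fell by 1.76 and 4.13 (adjusted p = 0.00221 and 0.0023, edgeR). With either the Turned Cu libraries of rabbits 1 and 3 or those of rabbits 2 and 4 left out, 6 of the 11 fell. Of all 11617 genes, 2077 fell in the first of these fits and 2888 in the second.

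Stromal and endothelial markers, from cells that make CSF1 or IL34, fell in 11 of 14 cases and rose in 1. Of all genes, 19.6% fell and 23.2% rose. The marker median of -3.16 was the same with STAB2 set to a floor of 3 counts over the group. CDH5, the cadherin of endothelium, fell by 4.06 (adjusted p = 2.42e-05), TEK, an angiopoietin receptor, by 5.83 (adjusted p = 0.000106), and PDGFRB and PDGFRA, growth factor receptors of mesenchymal cells, by 3.22 and 3.71 (adjusted p = 2.8e-05 and 3.96e-05, edgeR). The summed level of the 14 stromal and endothelial markers was 96.4 to 225 CPM in Turned Cu and 303 to 962 CPM in the other libraries, and STAB2, a marker of sinusoidal endothelium, was at 0 in all 4 copper libraries.

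Neutrophil markers rose against Sham in 7 of 10 cases with a median of 3.35 and 0 fell, beside 23.2% and 19.6% of all genes. Against Turned Ti 6 rose and 2 fell, with a median of 3.34, and against SLA Ti 1 rose and 2 fell, with a median of -0.02. All genes gave 21.1% higher and 19.6% lower against Turned Ti, and 15.3% and 15.7% against SLA Ti. CXCR2 and CXCR1, receptors for neutrophil-attracting chemokines, rose by 4.78 ± 1.19 and 4.86 ± 1.31 (adjusted p = 0.00365 and 0.00618, edgeR). The 10 markers summed to 1260 to 2420 CPM in Turned Cu, 25.3 to 691 in Sham, 23.4 to 1480 in Turned Ti and 177 to 3250 in SLA Ti, so the groups overlapped. Without Sham replicate 1, 2 or 4, or without Turned Cu replicate 3, 4 of the 10 rose, and likewise without the Turned Cu libraries of rabbits 1 and 3. In these fits 1609 to 2446 of all 11617 genes were called higher.

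Lymphocytes, which can make RANKL, gave 5 testable markers, of which 2 rose, beside 23.2% of all genes. CD5 rose by 2.30 ± 0.60 (adjusted p = 0.00539) and CD4 by 2.15 ± 0.68 (adjusted p = 0.0165, edgeR), and neither passed without the Turned Cu libraries of rabbits 1 and 3 (adjusted p = 0.106 and 0.29). CD4 did not pass without that of rabbit 3 alone (adjusted p = 0.159). On the RPKM scale neither passed, with 1.15 for CD5 (adjusted p = 0.179) and 0.91 for CD4 (adjusted p = 0.293, limma). The median over all genes was -1.0 there. MS4A1 and CD79B, B cell markers, differed by 2.91 ± 1.19 (adjusted p = 0.0586) and 0.28 ± 0.82 (adjusted p = 0.815, edgeR). MS4A1 passed without Sham replicate 3, Turned Cu replicate 1 or Turned Cu replicate 3, with adjusted p-values of 0.0279, 0.0458 and 0.0478 by edgeR. It also passed by DESeq2, at 2.8 (adjusted p = 0.044). With edgeR it passed at 2.68 with only the compared groups (adjusted p = 0.042) and 3.58 without the Turned Cu libraries of rabbits 1 and 3 (adjusted p = 0.0361).

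Of the 131 genes of the 10 lists that were tested, edgeR called 0 in Turned Ti against Sham, 0 in SLA Ti against Sham and 0 in SLA Ti against Turned Ti, where it called 0% of all genes. At an unadjusted p below 0.05 these comparisons held 7, 45 and 39 of the 131, beside 2.5%, 14.3% and 9.02% of all genes. DESeq2 called 0, 18 and 6 list genes, limma on RPKM 0, 25 and 1, and edgeR with no low-count filter 0, 9 and 6. Over all genes the calls were 0, 337 and 101 by DESeq2, 0, 368 and 7 by limma, and 0, 195 and 87 with no filter.

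Within the groups CSF1 and CSF1R varied together more than the other pairs. Over the 16 libraries, with each group's mean removed, Pearson's r of log2 CPM was 0.47 between CSF1 and CSF1R and between -0.30 and 0.28 for the other pairs. These libraries share rabbits and depth, and the values are descriptions. The genes whose deviations were most like those of CSF1 among 8841 compared were ZBTB49 (r = 0.84), GFOD2 (0.82), ADGRE5 (0.80), AOC2 (0.79) and SLC26A11 (0.78).

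For CSF1R the genes most alike were KIF19 (r = 0.86), NRP2 (0.85), ESYT3 (0.85), RNF121 (0.83) and PTK7 (0.82). For IL34 they were EVA1A (0.86), AKR1B1 (0.85), TAGLN2 (0.84), MEA1 (0.84) and NTN4 (0.84). For TNFSF11 they were HYPK (0.77), STC2 (0.76), DLX3 (0.75) and DKK1 (0.73), at the few counts this gene had. None of these genes is a member of the axis or of its partners.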

How the data were processed

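The authors' deposited counts are whole, yet 6 to 24 genes per library have an RPKM above 0 beside a count of 0, so they were treated as estimated counts. RPKM values stand in the same table, per the file headers, with the authors' log2 fold changes with p-values and q-values, whose test is not stated. The submitters' processing notes name STAR 2.7.1a and Cufflinks 2.2.1. Libraries were paired reads of 75 bases from a stranded total RNA kit, per the labels.

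From the counts, edgeR 4.0.16 (R 4.3.3) was run with filterByExpr (minimum 10), TMM scaling and 1 mean per group over all 16 libraries. The SE of a log2 fold change was worked out from the fold change and its F statistic. Alternatives used RLE scaling, DESeq2 1.42.0, limma 3.58.1 on log2(RPKM + 0.1), no filter, other gene or library subsets, site end and a rabbit block. Ratios were compared by two-sided exact permutation. Replicate numbers are rabbits, so they pair the libraries by design, although same-rabbit deviations correlated at only -0.17 to 0.32, with 12 of 24 pairs above 0.1. In all, 0 library pairs were identical. The code was tested on simulated data. Intervals and count floors cover counting error only where they rest on counts.

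The 4 genes and the 10 lists were chosen with earlier results of these data known. Partners, CTSK, TNF, IL1B and CD68 are named whatever their p, other lists by up to 4 members of smallest p against Sham, and 5 most alike genes per gene. Of the list genes 3 were found by full name and 3 by RefSeq description. A few genes this rule admits are not reported here. No sequences are printed.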

Additional observations from a re-analysis of the deposited data

Results flagged for a closer look

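In 5 of the 28 groups of 4 libraries examined, 1 library lay far from the other 3 by Dixon's criterion, which chance alone meets in about 5% of groups. TNFSF11 was 3.73 CPM in the SLA Ti library of rabbit 4, against 0.192 to 0.617 CPM in the others, and the log2 ratio of TNFSF11 over TNFRSF11B was 4.31 in the same library. The log2 ratio of CSF1 over CSF1R was -2.95 in the Sham library of rabbit 2 and 3.52 in the Turned Cu library of rabbit 4. The log2 ratio of IL34 over CSF1 was -3.24 in the SLA Ti library of rabbit 2.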

How the results depend on the processing

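In all 57 alternative values of its 3 comparisons with copper, CSF1 stayed higher and past the threshold, with log2 fold changes of 3.83 to 5.12 against Sham, 2.75 to 4.65 against Turned Ti and 2.09 to 4.23 against SLA Ti. Among the 4 genes, the values that left their side of the threshold or their sign belong to CSF1R, IL34 and TNFSF11, and the causes were not tested. Depth limits the precision for TNFSF11, which had 1 to 4 counts per copper library. Leaving out several libraries and comparing CSF1R with CD68, CD14 and TYROBP were chosen after seeing the data. The replicate block (rabbit) moved no log2 fold change of a named gene across the threshold, 70 of 70 tested. Genes called went with it from 4968 to 4875 in Turned Cu against Sham, from 4728 to 4632 against Turned Ti and from 3598 to 3660 against SLA Ti.

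For CSF1R in Turned Cu against Sham the sign turned to -0.12 with no low-count filter, -0.02 without ribosomal RNA and mitochondrial genes, -0.04 with only the compared groups, -0.92 by limma on RPKM and -0.88 without the Turned Cu libraries of rabbits 1 and 3. Against SLA Ti it turned to -0.05 with RLE scaling, -0.05 by DESeq2, -0.23 with no filter, -0.03 with the replicate block, -0.03 with site end as a term, -0.11 without ribosomal RNA and mitochondrial genes, -1.81 by limma, -0.97 without the Turned Cu libraries of rabbits 1 and 3 and -0.12 without the 3 libraries of highest ribosomal RNA. Against Turned Ti CSF1R was -1.81 by limma and turned to 0.26 without the Turned Cu libraries of rabbits 2 and 4, and SLA Ti against Turned Ti gave 0.00 by limma.

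IL34 in Turned Cu against Turned Ti passed at -1.53 with RLE scaling, -1.53 by DESeq2, -1.68 with no filter, -1.55 without ribosomal RNA and mitochondrial genes, -2.42 by limma and -1.81 without the 3 libraries of highest ribosomal RNA, where it also passed at -1.55 against Sham. By limma IL34 passed at -2.03 against SLA Ti and its sign turned to 0.33 in SLA Ti against Sham. TNFSF11 passed by limma at -1.86 against Sham, -2.02 against Turned Ti and -2.30 against SLA Ti. In Turned Ti against Sham its sign turned to -0.04 with RLE scaling, -0.08 by DESeq2, 0.00 with no filter, -0.20 with the replicate block, -0.01 with site end, -0.02 without ribosomal RNA and mitochondrial genes and -0.02 with only the compared groups. In SLA Ti against Sham it turned to -0.22 with the block and -0.86 without the 3 libraries of highest ribosomal RNA, and in SLA Ti against Turned Ti to -0.02 and -1.29.

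The number of genes called in SLA Ti against Sham was 0 by edgeR, 337 by DESeq2, 195 with no filter and 368 by limma, and in SLA Ti against Turned Ti it was 0, 101, 87 and 7, and 1 with the replicate block. In Turned Cu against SLA Ti 3598 genes were called, 6693 by limma and 2194 without the Turned Cu libraries of rabbits 1 and 3. With the replicate block, the p of the differences of CSF1 over CSF1R (4.78, 4.58 and 3.94) and of IL34 over CSF1 (-5.64, -5.29 and -4.27) went from 0.0286 to 0.125, the smallest that sign flips over 4 rabbits allow, and the adjusted p of 0.0858 had not passed without it. TNFSF11 over TNFRSF11B in Turned Cu against Sham turned to -0.17 with 2 counts added. Among single genes, signs turned for ADAM10 to -0.35 by limma, SDC1 to 0.35 without the Turned Cu libraries of rabbits 2 and 4, and CD79B to -0.04 with no filter, -0.06 with the replicate block, -1.17 by limma and -1.52 without the Turned Cu libraries of rabbits 2 and 4.

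Leaving out 1 library at a time, CSF1R ran from -0.30 to 0.29 in Turned Cu against Sham, -0.41 to 0.30 against SLA Ti, -0.18 to 0.34 in SLA Ti against Sham and -0.48 to 0.03 in SLA Ti against Turned Ti. IL34 ran from -1.69 to -0.70 in Turned Cu against Turned Ti and -0.41 to 0.57 in Turned Ti against Sham. TNFSF11 ran from -0.65 to 0.39 in Turned Ti against Sham, -1.21 to 0.83 in SLA Ti against Sham and -1.21 to 1.10 in SLA Ti against Turned Ti. Genes called ran from 0 to 300 in SLA Ti against Sham and 0 to 102 in SLA Ti against Turned Ti. The log2 ratio of CSF1 over CSF1R ran from 0.47 to 1.24 in SLA Ti against Sham, 0.40 to 1.05 in SLA Ti against Turned Ti and -0.18 to 0.35 in Turned Ti against Sham, and IL34 over CSF1 from -0.75 to 0.17 in Turned Ti against Sham. TNFSF11 over TNFRSF11B ran from -0.42 to 0.53 in Turned Cu against SLA Ti, -0.10 to 1.80 in Turned Cu against Turned Ti and -0.95 to 0.95 in Turned Ti against Sham. SDC1 ran from -0.43 to 0.15 and CD79B from -1.06 to 0.53 in Turned Cu against Sham.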
